A study of Mus musculus with 12 samples.

Results

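The cardiac sarcolemmal calcium transport genes described here are 7 of the 20775 genes listed in the deposited RNA-seq tables of E10.5 hearts and of adult cardiomyocytes of mice that lacked Med30, a subunit of the Mediator complex. They were taken by name. They encode the pore subunits of the L-type calcium channels (Cacna1c and Cacna1d) and of the T-type calcium channels (Cacna1g and Cacna1h), the auxiliary subunits Cacnb2 and Cacna2d1, and the sodium-calcium exchanger Slc8a1. All 7 were listed in both tables.

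At E10.5, whole hearts of 3 samples with Tnnt-Cre and both Med30 alleles floxed (Med30 f/f, cKO) were compared with hearts of 3 samples of Med30 f/f littermates that had no Cre (Ctrl). At 4 weeks after tamoxifen, isolated cardiomyocytes with αMHC-MerCreMer and floxed Med30 alleles (Med30 f/f, icKO, n = 3 samples, 3 months of age) were compared with cardiomyocytes of tamoxifen-treated Med30 f/f mice without Cre (Ctrl, n = 3 samples, of the same age). The mice were of C57BL/6 background per the labels, which call the controls wild type and name heart as the source of the adult samples, while their protocol names cardiomyocytes. Both Cre lines are driven by promoters active in cardiomyocytes, so other cells of the heart kept Med30, and an effect of Cre alone cannot be told apart from the loss of Med30. No source used here states that the samples of a group came from separate animals, so p values measure the spread between these samples.

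In cardiomyocytes, depolarization opens L-type channels, and the calcium that enters triggers the release of calcium from the sarcoplasmic reticulum and thus contraction. A channel is built around 1 pore subunit. In L-type channels, a beta subunit such as that of Cacnb2 binds the pore inside the cell and promotes its transport to the membrane and its opening, and an alpha2delta subunit such as that of Cacna2d1 sits on the outer face. T-type channels open at more negative potentials. They are known from embryonic heart muscle and, in the adult, from pacemaker and conduction cells. The exchanger removes calcium from the cell between beats against the entry of sodium.

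Levels are given as RPKM, reads scaled to gene length and library size, which allows comparison between genes. From the spacing of the low values, each library held an estimated 13.7 to 20 M reads at E10.5 and 11.9 to 17.5 M at 4 weeks. The targeted gene Med30 fell at both stages. Its level was 10.6, 13.3 and 11.3 RPKM in Ctrl and 1.38, 2.02 and 1.004 RPKM in cKO hearts, and 7.66, 7.45 and 7.66 RPKM in Ctrl and 3.81, 3.16 and 1.82 RPKM in icKO cardiomyocytes. All 7 cardiomyocyte markers listed (Myh6, Tnnt2, Actn2, Tnni3, Ttn, Myl2 and Ryr2) were expressed at both stages, and their summed level in adult Ctrl samples was 19320 to 20090 RPKM. Genes were tested with limma on log2(RPKM + 0.1) where their mean exceeded 1 RPKM over the 6 samples of a stage, with Benjamini-Hochberg adjustment across the whole stage. A call required an adjusted p under 0.05 and, in addition, a change of more than 1 on the log2 scale. For genes of low level, this scale understates the change.

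In adult cardiomyocytes, the major pore subunit Cacna1c, the T-type pore subunit Cacna1g and the beta subunit Cacnb2 fell after loss of Med30. Cacna1c dropped to 0.334 of its Ctrl mean, Cacnb2 to 0.418 and Cacna1g to 0.105. The exchanger Slc8a1 was at 0.740 and Cacna2d1 at 1.95 times its Ctrl mean, and neither reached the size required for a call. Among the 5 genes tested in adult cells the icKO samples all lay below Ctrl in 4 (18.9% of all genes tested) and above in 1 (62.0%). Of these 4, Cacna1g passed the level required for a test only through its Ctrl samples. At E10.5 none of the 6 genes tested was called, and the cKO samples all lay below Ctrl in 2 of them (22.6% of all genes tested) and above in 1 (6.50%).

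**Figure D1:**
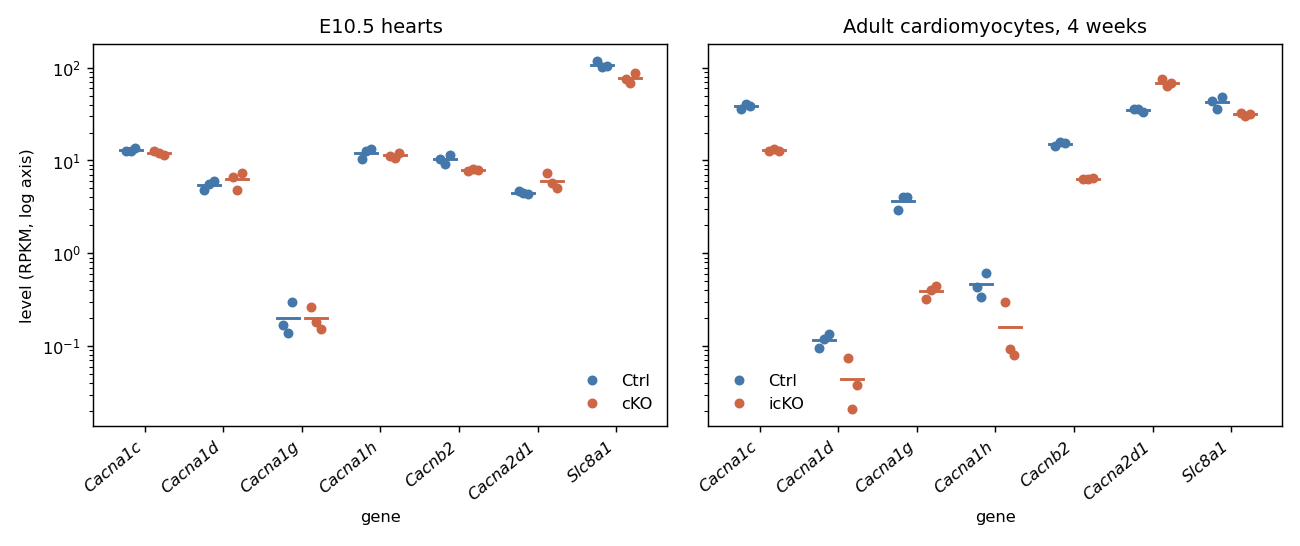
Levels of the 7 genes in RPKM on a log axis, in E10.5 hearts (left) and adult cardiomyocytes (right), with 1 point per sample and a line at the mean of the 3 samples of a group. In adult cells the icKO points lie below the Ctrl points for 6 genes and above them for Cacna2d1, and at E10.5 the groups are apart for Cacnb2, Cacna2d1 and Slc8a1.

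Cacna1c encodes the pore of the main L-type channel of the ventricle (chromosome 6 of GRCm38, 118587240 to 119196418). In adult Ctrl cardiomyocytes its level was 36.0, 40.1 and 38.9 RPKM, and in icKO cardiomyocytes 12.5, 13.4 and 12.5 RPKM. Every icKO sample lay far below every Ctrl sample, and the 3 values of a group were close to each other. The log2 fold change was −1.57 (standard error, SE, 0.0805, limma, adjusted p = 5.57e-07). At E10.5 the levels were 12.5, 12.6 and 13.7 RPKM in Ctrl and 12.8, 12.2 and 11.6 RPKM in cKO hearts, and the groups overlapped. The log2 fold change was −0.09 with a 95% interval from −0.33 to 0.15 (limma, adjusted p = 0.648), so a fall of the adult size lay outside the interval. Its sign at E10.5 turned under other scalings between samples, all of which left it between −0.09 and 0.09.

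Cacna1d encodes the other L-type pore subunit of the heart, which opens at more negative potentials and is known from the sinoatrial node and the atria. It lies on chromosome 14 from 30039939 to 30491455. In E10.5 hearts it had 4.82, 5.63 and 5.95 RPKM in Ctrl and 6.61, 4.84 and 7.37 RPKM in cKO samples. These groups overlapped, and the log2 fold change of 0.18 (SE 0.171, limma, adjusted p = 0.559) did not exceed the spread between samples. In adult cardiomyocytes it was barely detected, with 0.0960, 0.118 and 0.136 RPKM in Ctrl and 0.0750, 0.0210 and 0.0380 RPKM in icKO samples. These values rest on an estimated 11 to 20 reads per Ctrl sample and 3.04 to 11 reads per icKO sample, and the gene was below the level required for a test. The icKO samples lay below every Ctrl sample. In a fit with no filter the log2 fold change was −0.60 (limma, adjusted p = 0.0423), which rests on these few reads.

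Cacna1g and Cacna1h, the T-type pore subunits, were each at a low level at 1 of the 2 stages. Cacna1h, on chromosome 17 from 25374285 to 25433783, had 10.3, 12.5 and 13.3 RPKM in Ctrl and 11.1, 10.7 and 12.1 RPKM in cKO hearts at E10.5. The groups overlapped, with a log2 fold change of −0.08 (95% interval −0.37 to 0.21, limma, adjusted p = 0.739), whose sign also turned with the scaling. In adult Ctrl cells Cacna1h was at 0.432, 0.338 and 0.616 RPKM. In icKO cells it was at 0.302, 0.0940 and 0.0810 RPKM, below every Ctrl sample, from an estimated 7.95 to 41.8 reads per sample. It was too low to be tested, and in a fit with no filter its log2 fold change was −1.19 with a limma, adjusted p of 0.0793.

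Cacna1g, on chromosome 11 from 94408391 to 94474198, had the opposite distribution. At E10.5 it was at 0.167, 0.140 and 0.299 RPKM in Ctrl and 0.261, 0.182 and 0.153 RPKM in cKO hearts, too low for a test and with overlapping groups. In adult Ctrl cardiomyocytes it reached 2.93, 4.07 and 4.07 RPKM, against 0.322, 0.399 and 0.444 RPKM in icKO cardiomyocytes. Its fall was the largest among the 5 of the 7 genes tested at 4 weeks, with a log2 fold change of −2.95 (SE 0.210, limma, adjusted p = 2.61e-06), and it left an estimated 43.2 to 54.2 reads per icKO sample. The size depended on the pseudocount, with −1.75 at 1 and −3.21 at 0.01, and the gene passed the level required for a test only through its Ctrl samples. The pacemaker and conduction markers moved with it. Their summed level was 10.02 to 11.5 RPKM in adult Ctrl and 1.72 to 2.59 RPKM in icKO samples, with 2 of 8 markers tested, Hcn4 and Smoc2, both called lower, and Isl1 and Vsnl1 listed at 0 in all adult samples. Hcn4, with means of 3.61 RPKM in Ctrl and 0.296 RPKM in icKO samples, also passed the level required for a test only through its Ctrl samples. The part of such cells in the fall of Cacna1g was not tested, and in bulk samples fewer cells of a type and less RNA per cell cannot be told apart.

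Cacnb2, on chromosome 2 from 14603088 to 14987908, fell with Cacna1c in the adult. Its level was 14.4, 16.0 and 15.3 RPKM in Ctrl and 6.29, 6.34 and 6.43 RPKM in icKO cardiomyocytes. The icKO samples were close to each other and lay well below Ctrl. The log2 fold change was −1.25 (SE 0.0862, limma, adjusted p = 2.23e-06). At E10.5 it was at 10.3, 9.10 and 11.6 RPKM in Ctrl and at 7.69, 8.13 and 7.94 RPKM in cKO hearts. Here too the groups were apart, but the log2 fold change of −0.37 (SE 0.122) had a limma, adjusted p of 0.108.

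Cacna2d1, on chromosome 5 from 15934691 to 16374511, encodes the protein that is cut into the alpha2 and delta chains. In adult cells it was at 35.8, 36.3 and 33.6 RPKM in Ctrl and at 74.9, 62.9 and 67.9 RPKM in icKO samples. All icKO samples were above all Ctrl samples. The log2 fold change was 0.96 (SE 0.0858, limma, adjusted p = 9.58e-06), just inside the limit of 1. Without icKO replicate 2 it was 1.02, and the gene was then called. All genes tested at 4 weeks had a median of 0.57, and relative to it the log2 fold change of Cacna2d1 was 0.39. At E10.5 its level was 4.70, 4.44 and 4.395 RPKM in Ctrl and 7.32, 5.72 and 5.03 RPKM in cKO hearts. The cKO values spread widely above the Ctrl values, with a log2 fold change of 0.39 (SE 0.155, limma, adjusted p = 0.165).

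Slc8a1, on chromosome 17 from 81373105 to 81738377, had the highest level of the 7 genes in embryonic hearts. At E10.5 it was at 116.8, 102.4 and 103.5 RPKM in Ctrl and at 75.3, 69.1 and 87.6 RPKM in cKO hearts. The groups were apart, and the log2 fold change of −0.48 (SE 0.132) had a limma, adjusted p of 0.0676. That p passed 0.05 in 1 of 15 alternative fits, without cKO replicate 3, where it was 0.0452. In adult cardiomyocytes Slc8a1 was at 43.4, 35.9 and 47.8 RPKM in Ctrl and at 32.3, 30.4 and 31.4 RPKM in icKO samples. The icKO samples lay close together below the lowest Ctrl sample, and the log2 fold change was −0.42 (SE 0.107, limma, adjusted p = 0.00549).

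At E10.5, 0 of the 6 genes tested were called lower or higher by limma, where 0.542% of the 10885 genes tested were called lower and 0.239% higher. None of the 6 had an adjusted p under 0.05, which 4.32% of all genes had. An unadjusted p under 0.05 was found for 3 of the 6. The share of all genes with such an unadjusted p was not counted. The unadjusted counts, here and below for markers and related genes, can thus not be read as an excess. The median log2 fold change of the 6 genes was −0.09, beside −0.13 for all genes tested. The cardiomyocyte markers had a summed level of 3723 to 6185 RPKM in Ctrl and 2644 to 3265 RPKM in cKO hearts, with 0 of 7 called by limma (2 at an unadjusted p under 0.05) and none at 0. Most of this gap lay in Myl2, with means of 3105 and 1436 RPKM (limma, adjusted p = 0.0734), while Actn2 had means of 163.9 and 166.9 RPKM and Ttn of 175.5 and 197.8 RPKM. The part of these cells in the lower values of Cacnb2 and Slc8a1 was not tested.

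At 4 weeks, 3 of the 5 genes tested were called lower (Cacna1c, Cacna1g and Cacnb2), where 8.45% of the 9517 genes tested were called lower. Of these 3, Cacna1g passed the level required for a test only through its Ctrl samples, so that its groups had to differ. None of the 5 was called higher, where 28.0% of all genes were. All 5 had an adjusted p under 0.05, as did 78.7% of all genes, and 4 of them, Cacna1g included, were below 0. The median log2 fold change of the 5 genes was −1.25, beside 0.57 for all genes tested. This median also includes Cacna1g, whose fall was in part set by the filter. Apart from Cacna1g the values were −1.57 (Cacna1c), −1.25 (Cacnb2), −0.42 (Slc8a1) and 0.96 (Cacna2d1). After median-ratio scaling, which brought the median of all genes to 0.04, the log2 fold changes were −2.11 for Cacna1c, −3.42 for Cacna1g, −1.78 for Cacnb2, −0.96 for Slc8a1 and 0.42 for Cacna2d1, so the scaling changed the sizes but turned no direction at 4 weeks. The summed level of the cardiomyocyte markers was 7160 to 9039 RPKM in icKO cells, with 4 of 7 called lower, while Actn2 was at 626.3 RPKM in Ctrl and 1139 RPKM in icKO cells on average (log2 fold change 0.86, limma, adjusted p = 2.48e-05). The summed level of the fibroblast markers was 5.03 to 8.39 RPKM in Ctrl and 60.4 to 87.5 RPKM in icKO cells, and none of the 8 was at 0 in all samples. Of these, 5 were tested and called higher, but 4 of them (Col1a1, Col1a2, Col3a1 and Postn) passed the level required for a test only through their icKO samples. The part of these cells in the changes of the channel genes was not tested.

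**Figure D2:**
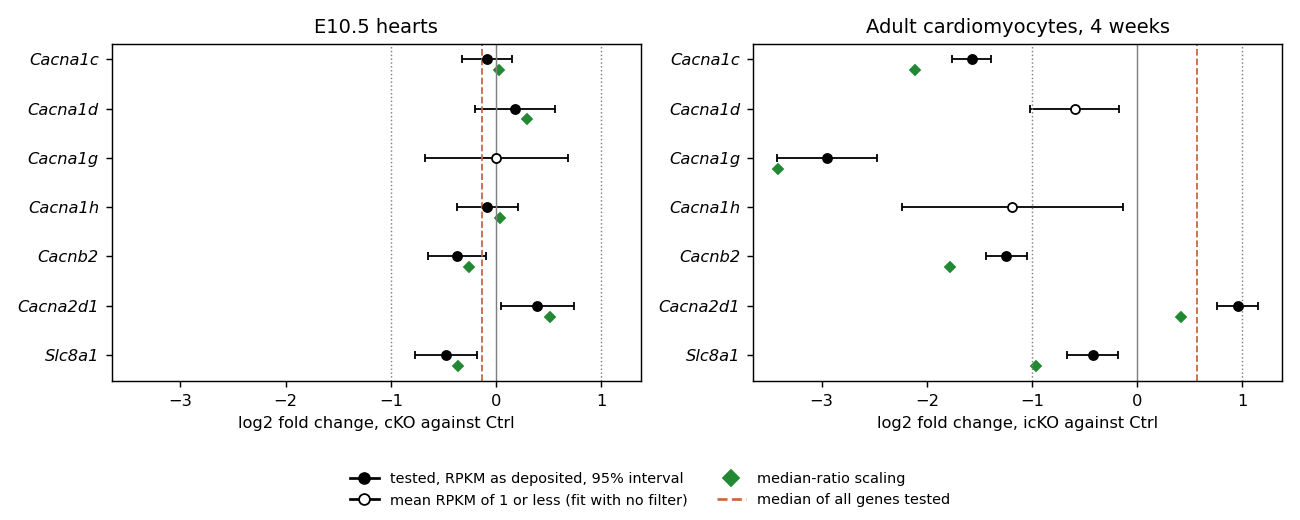
Log2 fold changes of the 7 genes between knockout and Ctrl in E10.5 hearts (left) and adult cardiomyocytes (right), as deposited with 95% intervals (circles, open where the mean was 1 RPKM or less) and after median-ratio scaling (diamonds). The dashed line marks the median of all genes tested, −0.13 at E10.5 and 0.57 at 4 weeks, and the dotted lines mark the limit of 1 required for a call.

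The effect of the knockout was compared between the stages for the 4 genes tested at both. For Cacna1c the adult log2 fold change was lower than the embryonic one by a difference of −1.49 (SE 0.124, limma, adjusted p = 5.23e-07). For Cacnb2 the difference was −0.87 (SE 0.143, limma, adjusted p = 0.000124). For Cacna2d1 it was 0.56 (SE 0.175, limma, adjusted p = 0.0114), and for Slc8a1 0.06 (95% interval −0.31 to 0.42, limma, adjusted p = 0.776). Thus 3 of 4 genes differed between stages as deposited, where 68.7% of the 8909 genes tested at both stages did. The first 2 differences grew to −2.14 and −1.53 after median-ratio scaling. Under the same scaling the difference of Cacna2d1 was −0.09 (limma, adjusted p = 0.690) and that of Slc8a1 was −0.60 (limma, adjusted p = 0.00315), so which of these 2 genes differed between stages depended on the scaling. The median of this difference over all genes was 0.69 as deposited.

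The order of the levels differed between the groups. In E10.5 Ctrl hearts Slc8a1 (mean 107.6 RPKM) was followed by Cacna1c (12.9), Cacna1h (12.03) and Cacnb2 (10.3), whose samples overlapped from each gene to the next, and then by Cacna1d (5.47), Cacna2d1 (4.51) and Cacna1g (0.202), each apart from its neighbours. In cKO hearts the order was the same, with Cacna1d (6.27 RPKM) and Cacna2d1 (6.02 RPKM) now overlapping. Cacna1h (11.3 RPKM) and Cacnb2 (7.92 RPKM) were now apart. In adult Ctrl cardiomyocytes the first 3 genes, Slc8a1 (42.4 RPKM), Cacna1c (38.3) and Cacna2d1 (35.2), overlapped from each to the next and were followed at a distance by Cacnb2 (15.2), Cacna1g (3.69), Cacna1h (0.462) and Cacna1d (0.117). In icKO cardiomyocytes Cacna2d1 came first (68.6 RPKM), before Slc8a1 (31.4) and Cacna1c (12.8), and no neighbours overlapped.

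Between the stages, set side by side from tables normalized separately and with no test, the Ctrl mean of Cacna1h was 26.0 times higher at E10.5 than in adult cells, and that of Cacna1d 46.9 times higher. The Ctrl mean of Cacna1g was 18.3 times higher in adult cells, that of Cacna2d1 7.81 times, that of Cacna1c 2.96 times and that of Cacnb2 1.47 times. Slc8a1 was 2.54 times higher at E10.5. Whole hearts and isolated cardiomyocytes hold different cells, so age and cell composition cannot be told apart here.

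Ratios of genes within a library do not depend on the scaling between libraries. For 9 such measures at 2 stages, 18 in all, an exact permutation test of 3 samples against 3 (two-sided) cannot give a p under 0.1, and the p of groups that do not overlap was 0.1, or 0.15 after adjustment over the 18. All but the T-type share and the ratio of Slc8a1 to Cacna1c were chosen after values of the genes had been seen. The T-type genes made up 37.5%, 41.0% and 41.0% of the summed RPKM of the 4 pore subunit genes in Ctrl and 37.0%, 39.0% and 39.4% in cKO hearts, with overlapping groups (exact permutation p = 0.3). In adult Ctrl cardiomyocytes they made up 8.51%, 9.89% and 10.7%, and in icKO cardiomyocytes 4.72%, 3.56% and 4.01%. The adult groups were apart, with means of 9.70% ± 1.11 and 4.09% ± 0.585 (SD, n = 3, exact permutation p = 0.1).

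Within the T-type pair, Cacna1h gave 97.7% to 98.9% of the summed RPKM in all E10.5 samples. In adult Ctrl cells its share was 12.9%, 7.67% and 13.2%, so Cacna1g was the main T-type transcript there. In icKO cells the share of Cacna1h was 48.4%, 19.1% and 15.4%, above all Ctrl samples and set high by replicate 1, without which the difference of the means was 6.03 in place of 16.4 percentage points. Within the L-type pair, Cacna1d gave 27.8%, 30.9% and 30.3% in Ctrl and 34.1%, 28.5% and 39.0% in cKO hearts, and its share was under 1% in every adult sample, 0.157% to 0.595%. These shares leave out Cacna1s, another L-type pore subunit gene, named after its values were seen. It was at 1.165, 0.939 and 1.145 RPKM in adult Ctrl and at 0.134, 0.145 and 0.230 RPKM in icKO cells. Its mean was below the level required for a test.

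**Figure D3:**
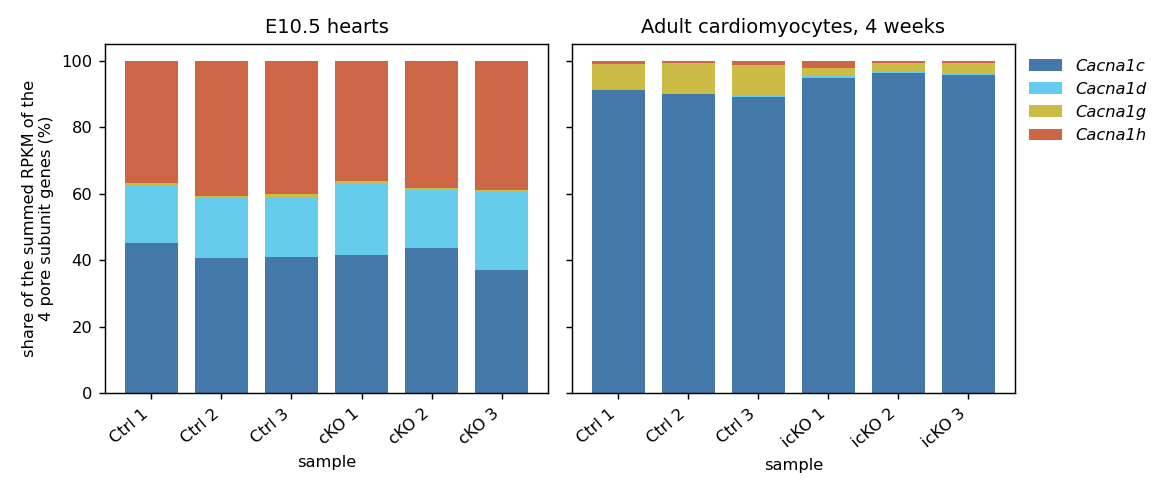
Share of each pore subunit gene in the summed RPKM of the 4 genes, in percent, with 1 bar per sample. E10.5 hearts divide the sum between Cacna1c, Cacna1h and Cacna1d, with T-type genes at 37.0% to 41.0%, and adult cells hold mostly Cacna1c, with T-type genes at 8.51% to 10.7% in Ctrl and 3.56% to 4.72% in icKO.

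The auxiliary subunits and the exchanger were also set against Cacna1c. The ratio of Cacna2d1 to Cacna1c RPKM was 0.994, 0.905 and 0.864 in adult Ctrl and 5.98, 4.71 and 5.42 in icKO cardiomyocytes. The groups were far apart, with a difference of 2.54 on the log2 scale (exact permutation p = 0.1). In E10.5 hearts the ratio was 0.375, 0.352 and 0.322 in Ctrl and 0.574, 0.471 and 0.435 in cKO samples, also apart, with a difference of 0.49.

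The ratio of Slc8a1 to Cacna1c in adult cells was 1.21, 0.897 and 1.23 in Ctrl and 2.58, 2.28 and 2.51 in icKO samples, a difference of 1.16 on the log2 scale between groups that were apart (exact permutation p = 0.1). In E10.5 hearts it was 9.32, 8.14 and 7.57 in Ctrl and 5.90, 5.68 and 7.58 in cKO samples. There the third cKO sample reached into the Ctrl range, and the difference was −0.39 (exact permutation p = 0.2). The ratio of Cacnb2 to Cacna1c was 0.399, 0.399 and 0.392 in adult Ctrl and 0.502, 0.475 and 0.513 in icKO cells, a shift of 0.32 on the log2 scale, and at E10.5 it went from 0.797 ± 0.0655 to 0.653 ± 0.0445 (SD, n = 3), a shift of −0.29 with groups apart.

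**Figure D4:**
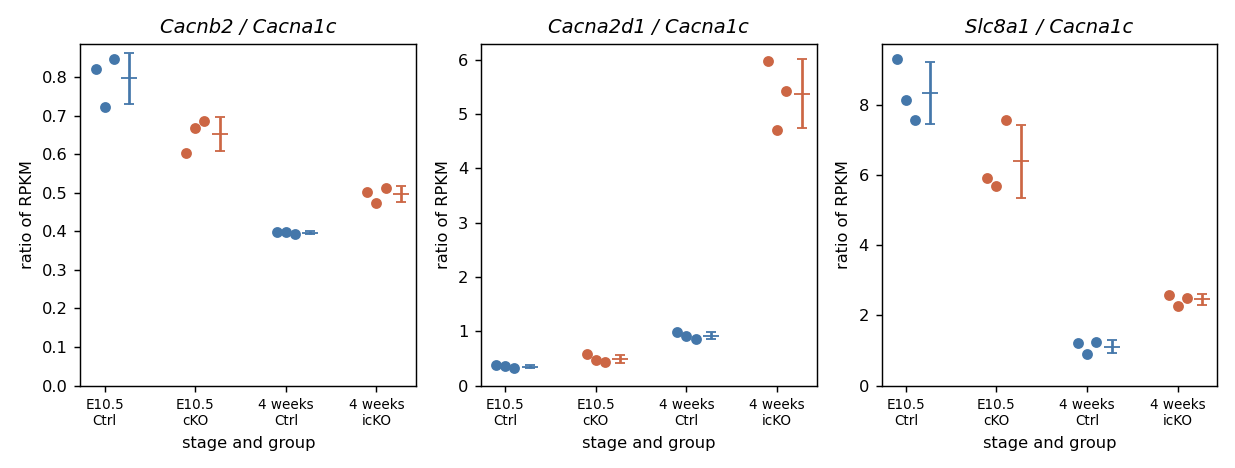
Ratio of the RPKM of Cacnb2, Cacna2d1 and Slc8a1 to that of Cacna1c in the same library, by stage and group, with 1 point per sample and the mean and SD of 3 samples beside the points. The largest shift is that of Cacna2d1 in adult cells, from a mean of 0.921 to a mean of 5.37.

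The mix of subunit families also differed. Among the beta subunit genes Cacnb1 to Cacnb4, Cacnb2 gave 89.0%, 88.7% and 86.5% of the summed RPKM in adult Ctrl and 46.5%, 41.8% and 48.7% in icKO cells. This was a shift of −42.4 percentage points between groups that were apart (exact permutation p = 0.1). Cacnb1, the beta subunit known from skeletal muscle, was called higher, with 1.71, 1.96 and 2.33 RPKM in Ctrl against 5.46, 7.57 and 5.13 RPKM in icKO cells (log2 fold change 1.54, SE 0.177, limma, adjusted p = 4.49e-05). Cacnb3, named after its values were seen, was at 0.0300, 0.0670 and 0.0230 RPKM in Ctrl and at 1.62, 1.002 and 1.53 RPKM in icKO cells, below the level required for a test. At E10.5 the share of Cacnb2 was 76.0%, 77.2% and 74.6% in Ctrl and 72.2%, 64.9% and 56.7% in cKO hearts, also apart.

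Among the alpha2delta genes, Cacna2d1 gave 98.3% to 99.0% of the summed RPKM in all adult samples. In E10.5 hearts it gave 16.7%, 15.5% and 17.2% in Ctrl and 29.6%, 24.7% and 19.8% in cKO samples, since Cacna2d2 was the main gene there, with 23.1, 24.0 and 20.6 RPKM in Ctrl and 17.2, 17.2 and 20.2 RPKM in cKO hearts (named after its values were seen, limma, adjusted p = 0.146). Slc8a1 gave over 95% of the RPKM of the exchanger genes Slc8a1 to Slc8a3 in all samples. Its share was 99.7%, 99.2% and 99.2% in adult Ctrl and 96.0%, 95.4% and 95.5% in icKO cells, with Slc8a2, named after its values were seen, at 0.273 RPKM in Ctrl and 1.33 RPKM in icKO cells on average.

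Of the genes related to these, 3 lists were examined. The 20 other subunits of voltage-gated calcium channels held 3 tested genes at E10.5, none called by limma (2 at an unadjusted p under 0.05), and 1 at 4 weeks, Cacnb1. The 12 other genes of calcium transport at the sarcolemma, such as the plasma membrane calcium pumps and store-operated channels, held 5 tested genes at E10.5 and 4 at 4 weeks. None of these was called by limma (1 and 3 at an unadjusted p under 0.05). At 4 weeks, 2 of the 4 had an adjusted p under 0.05 (limma), as did 78.7% of all genes tested, with changes not beyond 1. The median log2 fold changes of the tested genes of this list were −0.01 at E10.5 and 0.44 at 4 weeks.

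The 17 partners of the channels and the exchanger held the calls other than Cacnb1. At E10.5, 1 of 15 tested was called, and higher (0.239% of all genes). It was Gem, a small GTPase of the RGK family that binds beta subunits and inhibits calcium channels. Gem was at 2.69, 2.06 and 2.41 RPKM in Ctrl and at 3.58, 5.47 and 6.27 RPKM in cKO hearts (log2 fold change 1.04, SE 0.216, limma, adjusted p = 0.0328). This call was lost without any single Ctrl sample or cKO replicate 2 (limma, adjusted p of 0.0710 to 0.109) and without cKO replicate 3 (log2 fold change 0.87), and in 4 other alternative fits. Its relative Rrad, another inhibitor of the L-type channel, was at 40.6, 28.0 and 33.7 RPKM in Ctrl and at 17.2, 17.2 and 20.1 RPKM in cKO hearts, with a log2 fold change of −0.89 that was not beyond 1 (limma, adjusted p = 0.0208).

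At 4 weeks, 2 of 14 tested partners were called lower (8.45% of all genes) and 5 higher (28.0%). Rrad fell, with 50.1, 100.7 and 111.3 RPKM in Ctrl against 6.23, 9.21 and 8.64 RPKM in icKO cells, a log2 fold change of −3.37 (SE 0.279, limma, adjusted p = 6.17e-06). Ank2, whose protein ankyrin-B anchors the exchanger, fell from 31.2 to 11.97 RPKM on average (log2 fold change −1.38). Gem, at 0.105 RPKM in Ctrl, rose to 2.13 RPKM in icKO cells. Calm2 and Calm3 encode calmodulin, which binds the L-type pore and mediates its inactivation by calcium. They rose from 19.3 and 37.1 RPKM to 80.7 and 107.3 RPKM, with log2 fold changes of 2.05 and 1.53. Bin1, which shapes T-tubule membrane and is known to target L-type channels to it, rose from 0.112 RPKM in Ctrl to 2.29 RPKM in icKO cells. The sizes for Gem and Bin1 depended on the pseudocount, with log2 fold changes of 3.49 and 3.54 at 0.1 and of 1.501 and 1.56 at 1. Both passed the level required for a test only through the icKO samples, so that they had to differ, and dropped below it without any single icKO sample (Gem) or without icKO replicate 1 or 2 (Bin1).

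**Figure D5:**
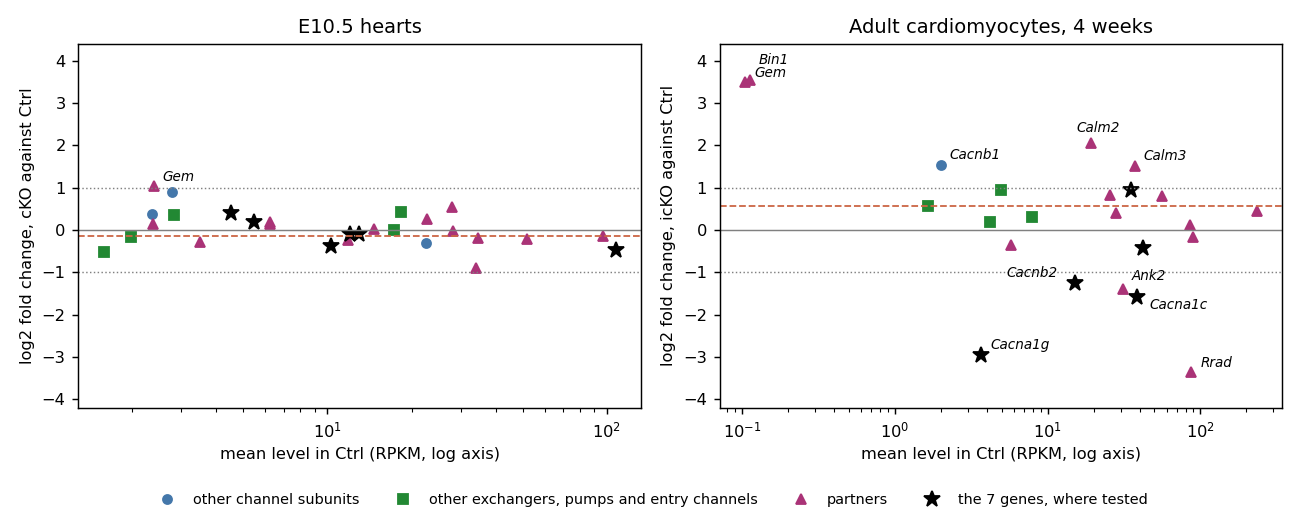
Log2 fold change between knockout and Ctrl against the mean RPKM in Ctrl (log axis) for genes tested at E10.5 (left) and 4 weeks (right), with the related genes by list and the 7 genes as stars. Called genes shown are named, 1 at E10.5 (Gem) and 10 at 4 weeks, and the dashed line marks the median of all genes tested.

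The genes whose pattern over the 12 samples was most like each of the 4 genes expressed at both stages were found by Pearson correlation of log2(RPKM + 0.1), centred on the mean of each stage, among 8908 other genes. For Cacna1c they were Ogdhl (r = 0.994) and Tmem164 (r = 0.992). For Cacnb2 they were Jun (r = 0.987) and Mtus2 (r = 0.987), for Cacna2d1 Cbarp (r = 0.963) and Lgmn (r = 0.957), and for Slc8a1 Tmem126a (r = 0.958) and Igfbp5 (r = 0.943). The points share libraries, and for genes with a large adult change r mostly reflects the distance between adult Ctrl and icKO samples.

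Promoter sequences are shown for the genes expressed at both stages, since Cacna1c and Cacnb2 fell in the adult, Cacna2d1 was higher and Slc8a1 changed less. The windows run from 250 bases before to 50 bases after a start site listed by RefSeq on GRCm38.p6, on the strand of the gene, and RefSeq windows were found for 5 of the 7 genes. Capitals mark matches, on either strand, to any of 3 short motifs. TGACG is the core of the cyclic AMP response element. AGATAA is bound by factors of the GATA family. TNAAGTG is a motif of NKX2-5. Cacna1c is shown at its most upstream start (chr6:119196360-119196659, minus strand), Cacnb2 at both of its starts (chr2:14604056-14604355 and chr2:14823842-14824141, plus strand), Cacna2d1 at chr5:15934441-15934740 (plus strand) and Slc8a1 at chr17:81738338-81738637 (minus strand).
Cacna1c: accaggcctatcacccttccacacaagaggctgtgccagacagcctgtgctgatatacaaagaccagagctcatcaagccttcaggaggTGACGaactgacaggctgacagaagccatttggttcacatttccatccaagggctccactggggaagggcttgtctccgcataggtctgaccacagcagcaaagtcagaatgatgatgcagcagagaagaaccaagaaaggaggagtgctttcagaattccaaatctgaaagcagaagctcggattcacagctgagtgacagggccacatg
Cacnb2, upstream start: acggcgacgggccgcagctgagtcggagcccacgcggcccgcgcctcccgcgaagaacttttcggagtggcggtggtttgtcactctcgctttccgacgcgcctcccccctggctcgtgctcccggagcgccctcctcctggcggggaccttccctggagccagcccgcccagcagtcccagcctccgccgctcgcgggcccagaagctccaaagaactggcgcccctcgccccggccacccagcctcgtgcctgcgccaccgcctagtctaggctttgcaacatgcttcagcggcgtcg
Cacnb2, downstream start: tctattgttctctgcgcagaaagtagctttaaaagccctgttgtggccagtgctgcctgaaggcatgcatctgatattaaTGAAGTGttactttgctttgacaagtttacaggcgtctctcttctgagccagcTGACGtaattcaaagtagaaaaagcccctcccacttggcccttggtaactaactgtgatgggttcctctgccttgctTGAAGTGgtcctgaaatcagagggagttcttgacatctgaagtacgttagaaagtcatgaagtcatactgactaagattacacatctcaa
Cacna2d1: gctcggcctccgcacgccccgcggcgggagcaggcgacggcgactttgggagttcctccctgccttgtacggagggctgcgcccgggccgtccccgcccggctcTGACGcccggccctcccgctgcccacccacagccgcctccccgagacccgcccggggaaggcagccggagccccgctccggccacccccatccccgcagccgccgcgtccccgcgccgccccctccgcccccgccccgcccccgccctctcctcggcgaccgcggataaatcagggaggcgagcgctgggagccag
Slc8a1: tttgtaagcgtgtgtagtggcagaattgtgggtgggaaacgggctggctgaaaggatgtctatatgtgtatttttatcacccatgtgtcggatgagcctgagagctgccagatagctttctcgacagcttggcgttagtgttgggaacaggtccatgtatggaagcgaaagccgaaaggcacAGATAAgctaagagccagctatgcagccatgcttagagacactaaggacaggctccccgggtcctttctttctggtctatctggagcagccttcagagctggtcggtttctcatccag

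The GC content was 80.0% in the window of Cacna2d1, 50.7% in that of Slc8a1, and 71.7% and 44.0% at the upstream and downstream starts of Cacnb2. The 3 windows of Cacna1c had 51.3%, 81.3% and 51.3% from the most upstream start on. The median of all 32851 RefSeq windows was 52.7%. TGACG was found in 3 of the 9 windows of the 5 genes, those of Cacna1c, Cacna2d1 and the downstream start of Cacnb2, and in 20.8% of all windows. AGATAA was found in the window of Slc8a1 and in 11.2% of all windows, and TNAAGTG in that of the downstream start of Cacnb2 and in 11.5% of all windows. TATAAA was found in 1 window, of Cacna1d, and in 13.6% of all windows. Neither CATTCC (a TEAD motif, 14.7% of all windows) nor the MEF2 motif (3.19%) nor the CArG box (1.63%) was found in the 9 windows. RPKM per gene do not say which start was used in these samples.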

How the data were processed

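RNA-seq libraries were made from total RNA with ribosomal RNA removed, per the labels, for 4 groups of 3 samples. Per the labels, the authors used cutadapt 2.6, STAR 2.5.3a, HOMER 4.11.1 and DESeq2 1.12.4 and the mm10 (GRCm38) build. The annotation, the use of strand in counting and the treatment of reads that fit several genes are not given in the sources used here. For each stage the authors deposited a table of RPKM for 20775 genes. The tables also hold the authors' log2 fold changes, FDR values and mean RPKM, none of which was used. Every per-sample column was assigned to a sample, and in the E10.5 table the cKO columns are named icKO.

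Reads per library were estimated as the depth at which the lowest values came nearest to whole reads, and 57.0% to 66.5% of them lay within 0.1 of a whole read. Counts so estimated cover counting error only, and no count test was run on them.

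In R 4.3.3, limma 3.58.1 was run separately per stage (lmFit, then eBayes with trend). Its input was log2(RPKM + 0.1) of every gene whose mean RPKM exceeded 1, which left 10885 genes at E10.5 and 9517 at 4 weeks, with Benjamini-Hochberg adjustment over all of them. The difference between stages was a contrast in a fit of all 12 samples. Ratios were tested by exact permutation in scipy 1.17.1. The main fit of each stage and that of the difference between stages were tested on simulated data, and the alternative fits were not. Alternatives were other pseudocounts, filters, scalings and variance models, a block for the replicate number, and leaving out each sample.

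The genes named are Med30, the 7 genes, the called genes of 3 related lists, and the 2 genes of most similar pattern for each gene. Markers are named where a sum or count turns on them, and any other gene is marked in the text as picked after its values were known. The values of 1 called gene of these lists are not reported here. The 7 genes and all lists were chosen with earlier results of these data known. Positions are from GENCODE M21. Exons of the 7 genes share no base with another gene on the same strand, and up to 7.32% (Cacnb2) with antisense genes, from which reads cannot be told apart if strand was not used. At most 0.182% of the 50-base stretches of a gene (Cacna1g) occur in transcripts of another gene.

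Of 9 lists of cell type markers, cardiomyocyte, fibroblast and pacemaker lists are given in the text. At 4 weeks the summed RPKM in Ctrl and icKO samples were also apart for mural cells (46.5 to 71.5, mostly Acta2, and 233.7 to 376.0, mostly Cnn1), macrophages (1.90 to 2.67 and 5.06 to 6.00), atrial cardiomyocytes (104.1 to 178.3 and 712.9 to 1185, mostly Nppa) and neurons and Schwann cells (0.978 to 1.46 and 0.470 to 0.588), and overlapped for endothelial and erythroid cells. Cnn1 rose from a mean of 0.167 to 254.3 RPKM, while Acta2 had means of 48.1 and 35.8 RPKM with overlapping groups. At E10.5 those of Ctrl and cKO samples were also apart for mural cells (496.7 to 602.9 and 676.6 to 830.4) and pacemaker cells (11.8 to 14.0 and 6.48 to 8.58), and overlapped for the other 6 lists.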

Additional observations from a re-analysis of the deposited data

Results flagged for a closer look

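The effect of the loss of Med30 differed between E10.5 hearts and adult cardiomyocytes, in a test of the difference itself, for 3 of the 4 genes tested at both stages. The differences of the log2 fold changes, 4 weeks minus E10.5, were −1.49 for Cacna1c, −0.87 for Cacnb2 and 0.56 for Cacna2d1. At this threshold 68.7% of all genes tested at both stages differed. Those of Cacna1c and Cacnb2 kept their direction and an adjusted p under 0.05 (limma) in all 21 alternative fits, and that of Cacna2d1 did so in 18. The fits where it did not were median-ratio scaling (−0.09), quantile normalization and scaling without the 20 most abundant genes. As deposited, the difference of Cacna2d1 was below the median over all genes, 0.69. Whether Cacna2d1 differed between stages thus depended on the scaling. Age, cell preparation and Cre line differ together between the stages and cannot be told apart.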

How the results depend on the processing

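No call was made among the 7 genes at E10.5 in any of 15 alternative fits. At 4 weeks Cacna1c, Cacna1g and Cacnb2 were called in all 15 except with a mean RPKM above 5, where Cacna1g was not tested and the count was 2, and leaving out single samples gave counts of 3 to 4. For the log2 fold change at E10.5, median-ratio scaling, quantile normalization and scaling without the 20 most abundant genes gave 0.0301, 0.0387 and 0.085 for Cacna1c and 0.037, 0.0342 and 0.0918 for Cacna1h, all turned in sign.

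The same 3 scalings gave −0.60, −0.67 and −0.36 for the difference between stages of Slc8a1, each with an adjusted p under 0.05 (limma), and −0.0938, 0.00401 and 0.149 for that of Cacna2d1, none under 0.05. Leaving out single samples gave −0.057 to 0.15 for Slc8a1. The count of genes that differed between stages was 3 to 4 throughout.

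The call of Gem, the only one among the related genes at E10.5, was lost with a pseudocount of 1, with no RPKM filter, with a mean RPKM above 5 and with eBayes without a trend, where the count was 0 (limma), and leaving out single samples gave counts of 0 to 1, with Gem called only without cKO replicate 1. Without Ctrl replicate 2 the 1 gene called was Rrad in place of Gem. At 4 weeks the count of 8 was 14 with no filter and 5 with a mean RPKM above 5, which test more or fewer genes. Calm3 had a log2 fold change of 0.99 after median-ratio scaling, under the limit.

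The T-type share at E10.5, a difference of −1.37 percentage points, was 0.147 without Cacna1d. Same-numbered samples did not deviate together (r of −0.07 to 0.10 at E10.5 and 0.04 to 0.15 at 4 weeks). With the replicate number as a block the count of calls stayed at 0 and 3 among the 7 genes and at 1 and 8 among the related genes, and 3 genes differed between stages. The block left the differences of the T-type share at −1.37 and −5.61 and those of the ratio of Slc8a1 to Cacna1c at −0.39 and 1.16, since a mean of paired differences equals the difference of means. At the depth of these libraries, adult Cacna1d and Cacna1h are too low for a firm value, and so is embryonic Cacna1g.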
